A study of Mus musculus with 4 samples.

Results

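The genes described here are ACTB, ACTG1, GAPDH, PPIA, TBP, PGK1, TUBB3, B2M and GUSB, transcripts that are commonly taken as internal references when RNA or protein of other genes is compared between samples. They make up 9 of the 30854 gene symbols on the array, and every probe carrying their symbols was taken on its own. The genes were chosen by name with the posterior minus anterior differences of their probes on these same 4 arrays already known. Those differences are therefore given as a description, with no test. Of the 9 symbols 8 had a probe, and no probe carried the symbol ACTG1. The 8 genes had 22 probes, of which 20 passed the filter on dim probes, and those 20 were detected on all 4 arrays. The other 2 probes, PGK1 ILMN_1226872 and B2M ILMN_2670561, were detected on no array, with intensities of 65.1 to 73 and 59.8 to 68.

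The RNA came from the cerebellum of Swiss mice at postnatal day 7, the age at which granule neuron progenitors multiply in the outer layer of the lobes. Anterior lobes and posterior lobes were dissected apart, and 2 samples of each were hybridised to MouseWG-6 v2 bead arrays, each sample to its own array. No treatment was given. The labels do not say how many animals each sample came from, and the spread between the samples of a lobe may hold technical and animal differences alike. On these arrays a probe is carried by many beads, and its intensity is the mean brightness of its beads. A probe was called detected where its detection p-value, which ranks it against the negative controls of the array, was under 0.05.

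Most of these transcripts code for proteins that nearly every cell needs. Reference transcripts are used on the premise that their amount does not depend on the condition studied. ACTB encodes beta-actin and ACTG1 gamma-actin, the cytoplasmic actins that build the filaments of the cell cortex, of growth cones and of migrating neurons. GAPDH and PGK1 encode consecutive enzymes of glycolysis, PPIA encodes cyclophilin A, a folding enzyme for proline bonds, and TBP encodes the protein that binds the TATA box. TUBB3 encodes the beta-tubulin of neurons, B2M the light chain of MHC class I molecules and GUSB a lysosomal enzyme that removes glucuronic acid. Beta-actin was the internal control of the study's PCR assays, and beta-III tubulin marked neurons in its cultures. The question here is how the reference transcripts compared between the lobes and whether probes of the same gene gave the same answer.

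Signals are quantile normalised log2 intensities and differences are posterior minus anterior on that scale. Median intensities were between 110.2 and 129.6 per array, and 21070 to 21574 of 45281 probes were detected on each. The anterior arrays differed from each other more than the posterior arrays did, with an SD of the replicate difference of 0.318 against 0.203 over 21726 tested probes. The arrays of replicates 1 and 2 also differed in sex-linked transcripts in both lobes. XIST, the RNA of the inactive X chromosome, had intensities of 6600.7 and 5616.7 on the replicate 1 arrays of the anterior and posterior lobes and of 83.9 and 102 on those of replicate 2 with probe ILMN_1224091. DDX3Y of the Y chromosome had 751.3 and 757.4 on the replicate 1 arrays and 4005.1 and 4481.3 on those of replicate 2 with probe ILMN_2899599. The samples of a lobe were thus not repeats of the same RNA. The markers of the granule neuron lineage were detected in part. ZIC1 read 8311.3 to 10698 and NEUROD1 705.9 to 917.5, PAX6 was dim at 147.3 to 197.9 with ILMN_2504978 and not detected with its other probe, GABRA6 was detected on 2 arrays, at 111 to 150.4 over all of them, and ATOH1 was detected on none, at 64.7 to 75.2.

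ACTB had 5 probes, and they fell into 3 patterns on the same 4 arrays. ILMN_2617433 and ILMN_2698799 read higher on each posterior array than on either anterior array. ILMN_1377923 did not separate the lobes. ILMN_2588055 and ILMN_2846865 were lower in posterior on the mean, and lower within each replicate number, but varied so widely between arrays of the same lobe that the lobes overlapped.

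ILMN_2698799 read 16547.7 and 13303 in anterior replicates 1 and 2 and 21716.5 and 21403.5 in posterior replicates 1 and 2. Its log2 signal was 13.87 ± 0.07 (SD, n = 2) in anterior and 14.38 ± 0.03 in posterior lobes, a difference of 0.51 with a standard error (SE) of 0.06, or 1.42-fold. ILMN_2617433 read 1779.4 and 1531.9 in anterior and 2676.4 and 2505.1 in posterior replicates 1 and 2. Both posterior arrays were above both anterior arrays for each of the probes. The log2 signal of ILMN_2617433 was 10.69 ± 0.01 in anterior and 11.34 ± 0.11 in posterior lobes, a difference of 0.65 (SE 0.09), or 1.57-fold. With replicates 1 alone the differences of ILMN_2698799 and ILMN_2617433 were 0.48 and 0.73, and with replicates 2 alone 0.54 and 0.58. Under the other ways of scaling the arrays they stayed between 0.51 and 0.62 and between 0.65 and 0.73.

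ILMN_1377923 read 16497.2 and 21444.7 in anterior and 19947.7 and 17152.8 in posterior replicates 1 and 2. The posterior arrays lay between the anterior arrays, so the lobes overlapped. The log2 difference was -0.05 (SE 0.19), and it was 0.37 with replicates 1 alone and -0.47 with replicates 2 alone. It was above 0, at 0.06 at most, when the arrays were shifted to a common 75th percentile or to a common mean of other reference genes.

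ILMN_2846865 read 735.2 and 6197.5 in anterior and 154.1 and 832.6 in posterior replicates 1 and 2. ILMN_2588055 read 649.4 and 5128.3 in anterior and 162.3 and 760.2 in posterior replicates 1 and 2. For both, anterior replicate 2 was far above and posterior replicate 1 far below the remaining arrays, and posterior replicate 2 was above anterior replicate 1. The highest intensity was 40.2 times the lowest for ILMN_2846865 and 31.6 times for ILMN_2588055. The log2 signals of ILMN_2846865 were 11.05 ± 2.33 (SD, n = 2) in anterior and 8.48 ± 1.71 in posterior lobes, a difference of -2.58 (SE 1.19). The difference of ILMN_2588055 was -2.38 (SE 1.14). Both differences were smaller in size than replicate 1 minus replicate 2 of the anterior arrays, -3.30 for ILMN_2846865 and -3.23 for ILMN_2588055. Single arrays set the size of both: without anterior replicate 2 the differences were -0.92 and -0.76, without posterior replicate 1 -1.36 and -1.27, without posterior replicate 2 -3.79 and -3.49, and without anterior replicate 1 -4.23 and -3.99. The direction was the same in all of these. With replicates 1 alone the differences of ILMN_2846865 and ILMN_2588055 were -2.13 and -1.87, and with replicates 2 alone -3.02 and -2.89, so arrays of the same replicate number differed in the same direction both times.

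**Figure D1:**
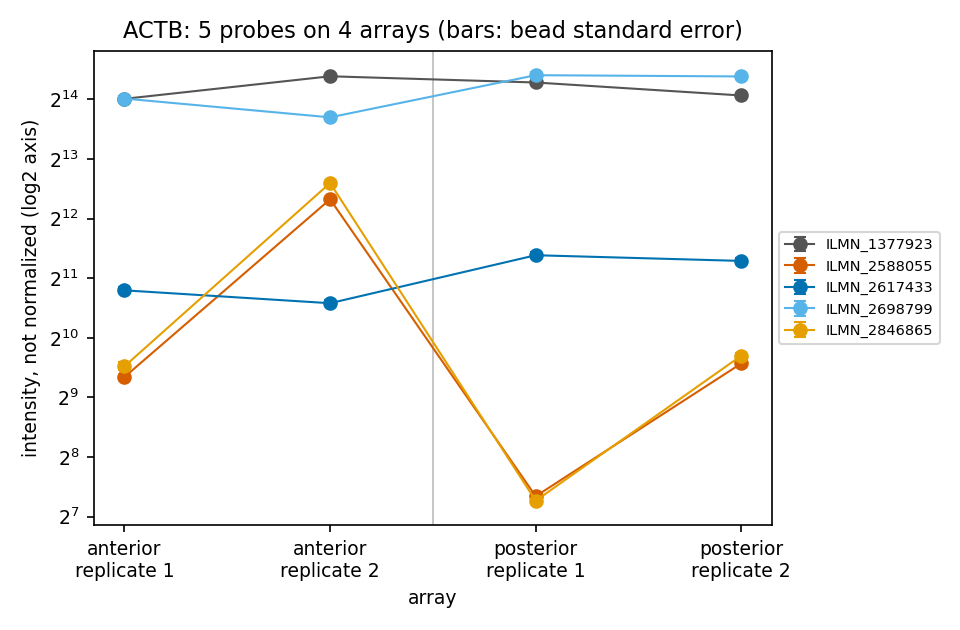
Intensity as deposited, not normalised, of the 5 ACTB probes (log2 axis) on the 4 arrays, with lines joining the arrays of a probe and error bars of 1 SE over beads, which are mostly smaller than the points. ILMN_2588055 and ILMN_2846865 run from 154.1 to 6197.5 between them, while ILMN_2617433 and ILMN_2698799 are higher on both posterior arrays.

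The counting error over beads was small beside these differences. The SE of the bead mean was 2.05% to 4.67% of the intensity over the 5 ACTB probes and 4 arrays, from 25 to 126 beads. On the array of anterior replicate 2 it was 2.97% for ILMN_2846865 and 2.05% for ILMN_2588055, and on that of posterior replicate 1 it was 3.49% and 3.35%. The detection p-values of this pair on posterior replicate 1 were 0.0182 for ILMN_2588055 and 0.0235 for ILMN_2846865, near the limit of detection.

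The pair moved together. After each probe was centred on its own mean over the arrays, the root mean square distance between ILMN_2588055 and ILMN_2846865 was 0.12 on the log2 scale. That between ILMN_2617433 and ILMN_2698799 was 0.09. The distance between a probe of the first pair and a probe of the second was 2.03 to 2.19, and ILMN_1377923 was 0.38 and 0.41 from the probes of the second pair and 1.73 and 1.84 from those of the first. By this distance the 5 probes gave 2 tight pairs and a single probe nearer to the second pair. The distance also depends on how wide the ranges are, so it does not show which order of arrays a probe shared. ILMN_1377923 read highest on anterior replicate 2, as the first pair did, while the second pair read lowest there. The letters of the probes and their places on the transcript were not used here.

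Set beside the other probes detected on all arrays, ILMN_2846865 and ILMN_2588055 of ACTB held extreme positions. The genes were chosen with results of these arrays known, so their ranks are a description. Among the 19914 probes detected on all arrays, the median range of the signal over the 4 arrays was 0.25 and its 95th percentile 0.73. ILMN_2846865 had the widest range, 5.44, and ILMN_2588055 the third widest, 5.10. The rank between them belonged to HNRPL, which codes for an RNA-binding protein, at 5.22. Tested XIST probes that were not detected on all arrays ranged wider, at 6.22 for ILMN_2475156 and 6.07 for ILMN_1224091. The ranges of the other ACTB probes were 0.74 for ILMN_2617433, 0.59 for ILMN_1377923 and 0.58 for ILMN_2698799.

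Probes of the same gene usually gave closer answers. In 3896 symbols with at least 2 probes detected on all arrays, the median spread between the highest and lowest lobe difference of a symbol's probes was 0.13, and the 95th percentile was 0.45. The spread of ACTB was 3.23, rank 1 of the 3896. The next was ALMS1 at 1.77. Symbols with more probes have more room for a wide spread, and this was not adjusted for. The spread of ACTB also depended on single arrays. Without anterior replicate 2 its differences ran from -0.92 for ILMN_2846865 to 0.65 for ILMN_2617433. The rank rests on lobe differences that were known when the genes were chosen. The other reference genes with several probes had spreads of 0.30 for GUSB, 0.29 for TBP, 0.16 for PPIA, 0.07 for PGK1 and 0.0018 for B2M. A single value for ACTB would depend on how its probes were joined, since the mean of the 5 differences was -0.77 while their median, which is also the value of the probe with the highest signal, was -0.05.

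**Figure D2:**
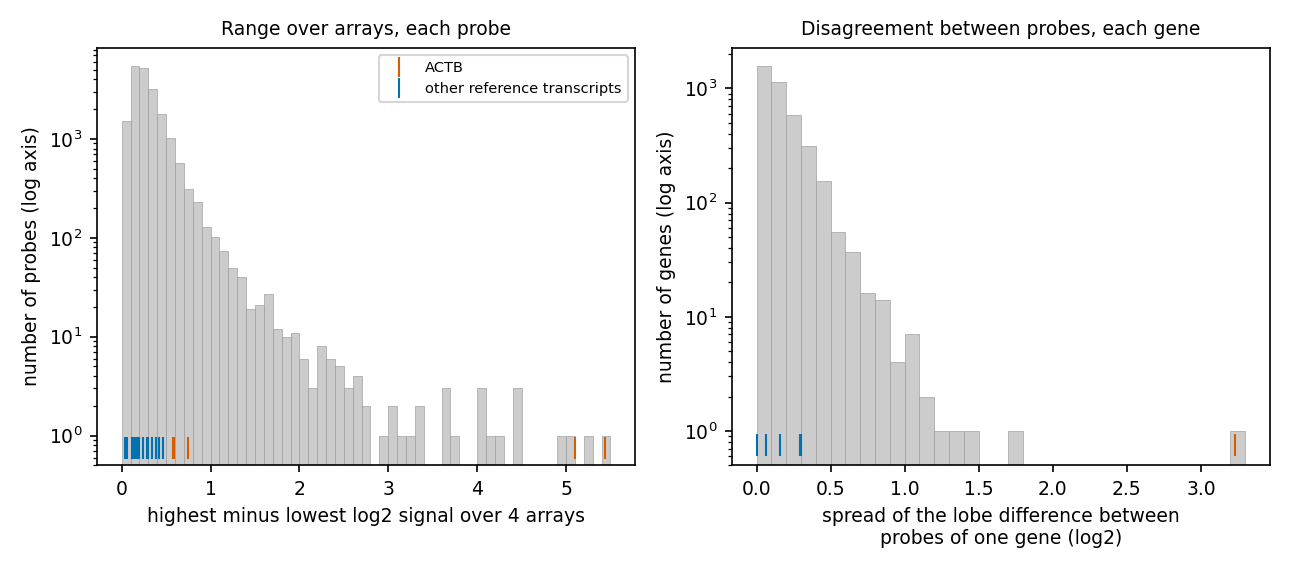
Left, the number of probes (log axis) by the range of their signal over the 4 arrays (highest minus lowest log2 signal), for the 19914 probes detected on all arrays. Right, the number of genes (log axis) by the spread of the lobe difference between their probes (log2), for 3896 genes; short vertical marks show ACTB (orange, at 3.23 in the right panel) and the other reference transcripts (blue).

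The pair with the wide range was higher on the replicate 2 arrays in both lobes. The replicate 1 minus replicate 2 difference was -3.30 in anterior and -2.42 in posterior lobes for ILMN_2846865, and -3.23 and -2.21 for ILMN_2588055. The corresponding values of ILMN_2617433 were 0.02 and 0.16, and those of ILMN_2698799 were 0.10 and 0.04. DDX3Y of the Y chromosome was also higher on the replicate 2 arrays of both lobes, as given above. TTR, which codes for transthyretin and marks the choroid plexus, read 599.9 and 9501.9 in anterior and 325.9 and 3777.6 in posterior replicates 1 and 2, the same order of arrays as the pair. The other choroid plexus markers looked at, FOLR1 and KL, did not pass the filter on dim probes. Among the probes of other symbols detected on all arrays TTR had the profile nearest to the pair, at a root mean square distance of 0.87, a comparison chosen after the values of the pair had been seen. Whether sex, choroid plexus in the dissections or another difference between the samples has a part in the signal of the pair was not tested.

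By the same measure, the 5 probes of other symbols nearest to the mean profile of the ACTB probes over the 4 arrays were those of KBTBD7 at 0.22, LOC100047214 at 0.27, VPS33B at 0.28, a symbol that the table gives as 4-Mar at 0.29 and CLIC6 at 0.29. That mean profile is dominated by the pair, and the KBTBD7 probe read 231.1 and 450.7 in anterior and 190.1 and 236.4 in posterior replicates 1 and 2. Over 4 arrays many probes can lie near any profile, and nothing is read from these names.

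The other 7 genes with probes differed little between the lobes. Their 15 tested probes had differences between -0.22 and 0.24, 9 of them above 0 and 6 below. The median absolute difference over all tested probes was 0.10. Of the 15, 9 had a range over the arrays no wider than the median of all probes, near the share that a median sets by definition. Their bead SE was 1.88% to 6.25% of the intensity. Between replicates of a lobe they differed by -0.42 to 0.13 in anterior and by -0.16 to 0.10 in posterior lobes. The lobe differences of TBP ILMN_2454677, PPIA ILMN_1233954 and PGK1 ILMN_2651886 were larger in size than the replicate differences of the same probe in either lobe. After normalisation both posterior arrays were above both anterior arrays for TBP ILMN_2454677, PGK1 ILMN_2651886, TBP ILMN_2869461 and GUSB ILMN_2855334. The same order was seen in 21.1% of all tested probes.

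GAPDH, the glycolytic enzyme most often paired with ACTB as a reference, had 1 probe, which read 16014.2 and 14789.5 in anterior and 14998.4 and 15706.1 in posterior replicates 1 and 2. The lobes overlapped, with a difference of -0.03 (SE 0.06) that was above 0 under some other scalings, at 0.08 at most. PGK1, the next enzyme of the pathway, read 4929 and 4326.4 in anterior and 4679.2 and 4853.8 in posterior replicates 1 and 2 with ILMN_2651886, a difference of 0.05 (SE 0.07). Its range after normalisation, 0.06, was narrow, and its dimmer probe ILMN_2797973, at 159.4 to 169.8, differed by -0.02 (SE 0.14).

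PPIA had a pair of bright probes. ILMN_1233954 read 33372.7 and 28137.4 in anterior and 26634.7 and 27762.8 in posterior replicates 1 and 2, and ILMN_1250983 read 27027.2 and 31966.7 in anterior and 29708.2 and 28236.6 in posterior replicates 1 and 2. The first was lower on both posterior arrays, by -0.14 (SE 0.06), and the second overlapped, at 0.02 (SE 0.12). The brightest probe of the table reached 39804.7.

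TBP, the general transcription factor, had 4 probes. ILMN_2869461 read 2576.1 and 2239.8 in anterior and 2338.1 and 2510.4 in posterior replicates 1 and 2, and after normalisation its range over the arrays was 0.04, rank 19800 of 19914 from the widest. ILMN_2454677 read 337.8 and 263.6 in anterior and 346.4 and 347.7 in posterior replicates 1 and 2, and was higher on both posterior arrays, by 0.24 (SE 0.12). The remaining probes overlapped, with differences of 0.08 (SE 0.12) for ILMN_2626740 and -0.06 (SE 0.14) for ILMN_1234361. The TBP probes thus lay within 0.24 of no difference.

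B2M, the MHC light chain, read 5641.6 and 4450.4 in anterior and 5263.1 and 5138.4 in posterior replicates 1 and 2 with ILMN_1216746, and 5548.6 and 4669.9 in anterior and 4884.3 and 5737.3 in posterior replicates 1 and 2 with ILMN_2739999. Both probes overlapped between lobes and both differed by 0.06 (SE 0.08). GUSB had differences of 0.08 (SE 0.08) for ILMN_2855334, -0.01 (SE 0.17) for ILMN_2768026 and -0.22 (SE 0.15) for ILMN_2741114, the dimmest of its probes at 162.3 to 205.5. TUBB3 had a single probe, at 150.2 and 132.2 in anterior and 140.8 and 158.8 in posterior replicates 1 and 2. These readings lie close to the detection limit, with a detection p-value of 0.0395 on posterior replicate 1, so the difference of 0.05 (SE 0.11) says little about the transcript of this neuronal tubulin.

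**Figure D3:**
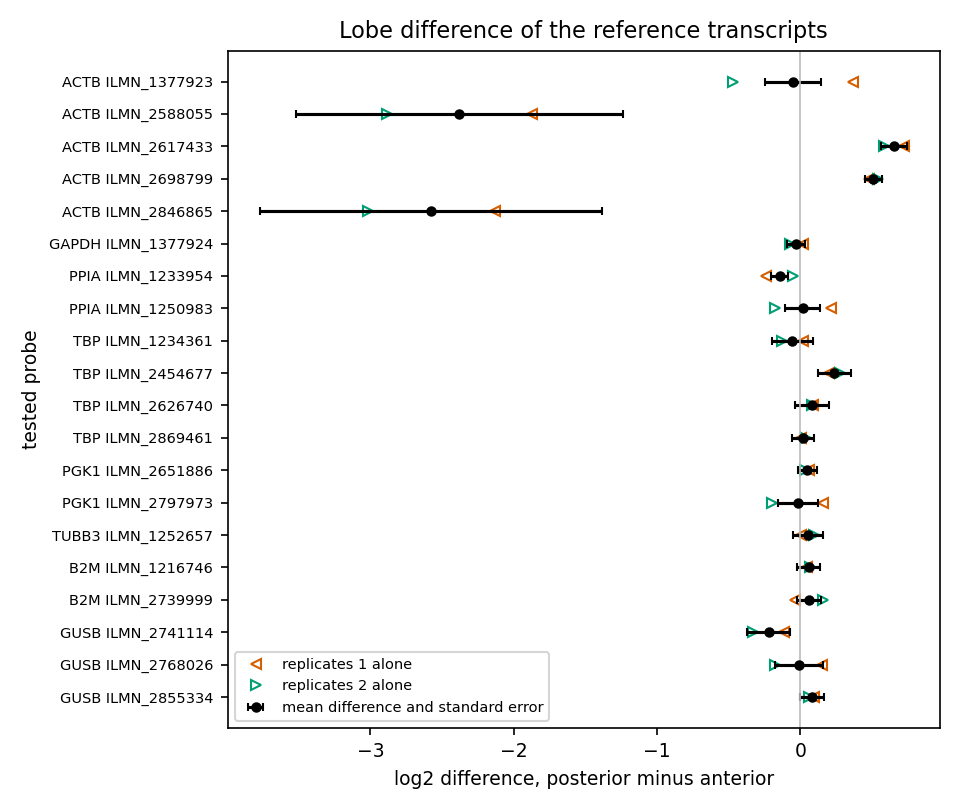
Log2 difference, posterior minus anterior, of the 20 tested probes of the reference transcripts, with the mean difference and its standard error (black) and the difference with replicates 1 alone and replicates 2 alone (triangles). ACTB runs from -2.58 to 0.65, and the probes of the other genes lie between -0.22 and 0.24.

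Counts of calls are given for the 20 tested probes beside the same counts over all 21726 tested probes, and nothing is read from them, since the differences were known when the genes were chosen. At an adjusted p under 0.05 (limma, Benjamini-Hochberg over all probes tested) 23 probes, 0.106%, were called, and 0 of the 20. At an unadjusted p under 0.05 in limma there were 2185 of all 21726 tested probes and 2 of the 20. With the methods' t-test 0 of the 20 passed after adjustment as well. By the criterion of the study, over 1.2-fold with an unadjusted p under 0.05, 1802 probes, 8.29%, were called, 3.30% higher and 5.0% lower in posterior. Of the 20, 2 were called, both higher, and they were the ACTB probes ILMN_2617433 and ILMN_2698799. Both posterior arrays were above both anterior arrays for 21.1% of all tested probes and for 6 of the 20, and below them for 21.5% of all and for 1 of the 20. Leaving out an anterior array changed the calls. Without anterior replicate 2 the adjusted p called 1.04% of all tested probes and 2 of the 20, ILMN_2617433 and ILMN_2698799. Without anterior replicate 1 it called 12.0% of all tested probes and 5 of the 20, all of ACTB, with the sign of each as above. In these fits the lone anterior array is assumed to vary like the posterior arrays.

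Marker transcripts of some cell types differed between the lobes on the same arrays. All 19 tested probes of 8 oligodendrocyte markers were lower in posterior on the mean, 17 of them past the criterion of the study, with a mean log2 signal of 10.85 to 10.92 in anterior and of 9.87 to 9.99 in posterior lobes. Of 9 probes of 6 meningeal fibroblast markers, 6 were higher past the criterion, with a mean of 8.89 to 9.01 in anterior and of 9.40 to 9.52 in posterior lobes. Of 6 endothelial probes 1 was higher past it, that of CDH5, and none of 7 granule neuron, 5 Purkinje cell, 8 astrocyte, 8 smooth muscle, 7 microglia or 13 red blood cell marker probes passed the criterion. The part of these cell types in the higher signal of ILMN_2617433 and ILMN_2698799 was not tested. In whole lobes fewer cells of a type and less RNA per cell cannot be told apart.

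The effect of the reference probe was read from CHRNA3, the nicotinic receptor subunit that the study followed. Its probe ILMN_1244673 read 225.7 and 227.1 in anterior and 849.6 and 760.4 in posterior replicates 1 and 2. The other CHRNA3 probe, ILMN_1237262, was detected on no array, at 70.5 to 79.5, and was not used. The log2 difference of CHRNA3 minus that of a reference probe on the same arrays, as a ratio of intensities without normalisation, was taken for each of the 20 probes. These intensities were not background-corrected, so the readings of CHRNA3 and of dim reference probes hold background, and the folds depend on it. Ratios after background correction were not taken. Relative to GAPDH CHRNA3 was 3.56-fold higher in posterior lobes. Over the 15 probes of the 7 genes other than ACTB the ratio was 3.05-fold to 4.12-fold, so these references gave like answers. Over the 5 ACTB probes it was 2.26-fold to 21.2-fold. It was lowest relative to ILMN_2617433 at 2.26-fold and ILMN_2698799 at 2.44-fold, it was 3.61-fold relative to ILMN_1377923, and it was 18.4-fold and 21.2-fold relative to ILMN_2588055 and ILMN_2846865. On the log2 scale the 4 single comparisons of a posterior with an anterior array ran from 1.66 to 2.01 relative to GAPDH and from 1.57 to 7.23 relative to ILMN_2846865. CHRNA3 was higher in posterior in every one of these comparisons, whichever probe was the reference. A ratio within an array shows that the transcripts changed unequally, not which of them changed. The probe of TLX3, the transcription factor of the study, was detected on the posterior arrays alone, so no ratio is given for it. The PCR primers of the study for beta-actin were not matched to any of these probes.

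**Figure D4:**
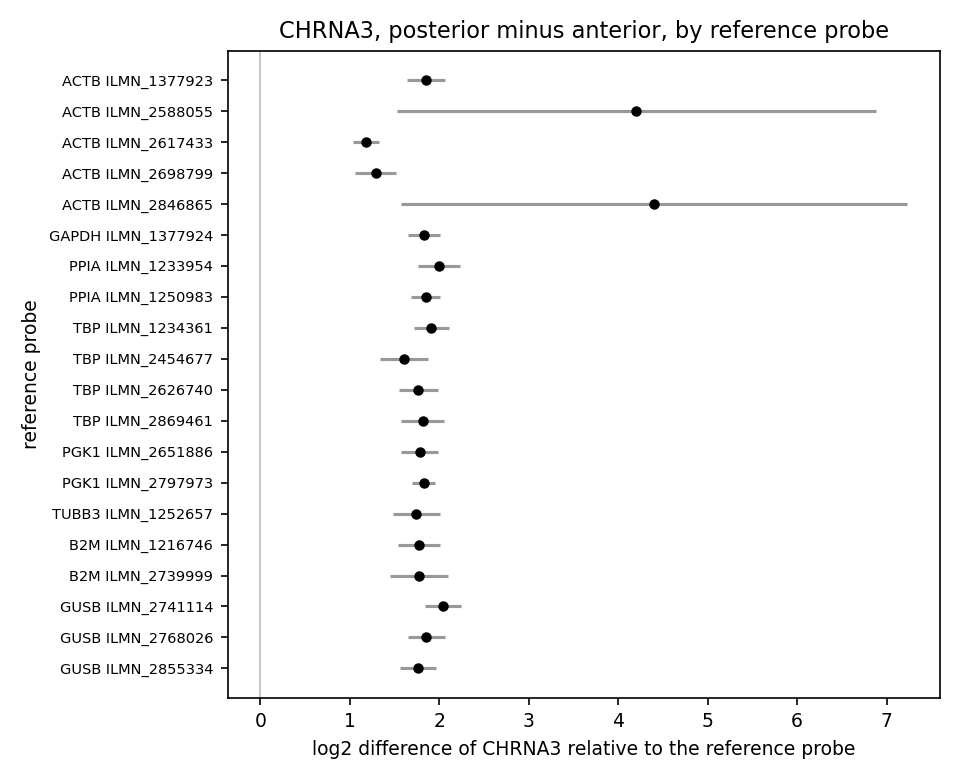
Log2 difference of CHRNA3, posterior minus anterior, relative to each of the 20 reference probes on intensities without normalisation. Points are means over the arrays and lines run from the lowest to the highest of the 4 single comparisons of a posterior with an anterior array, which reach from 1.57 to 7.23 for ACTB ILMN_2846865 and from 1.66 to 2.01 for GAPDH.

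Genes related to the reference transcripts by family or pathway were counted with the criterion of the study, over lists chosen by name. Of 181 tested probes of 119 genes in 9 lists, 7 were higher and 11 lower in posterior, and 0 passed an adjusted p of 0.05 in limma, with 25 at an unadjusted p under 0.05 whatever the fold. By the criterion 3.30% of all tested probes were called higher and 5.0% lower. In the same limma fit 2185 of all 21726 tested probes had an unadjusted p under 0.05. The median difference was 0.0049 over the lists and 0.0023 over all tested probes. Without anterior replicate 1 the lists had 50 probes past the criterion in place of 18, and without posterior replicate 2 they had 11.

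Among the actins, 0 of 5 probes of ACTA1 and ACTA2, the skeletal and smooth muscle actins, passed the criterion, with a median of 0.17. The largest differences were 0.22 (SE 0.12) for ACTA2 ILMN_2923445 and 0.18 (SE 0.11) for ACTA1. The other tested ACTA2 probes differed by 0.17, 0.0099 and -0.10, so they did not share a direction. Of 39 probes of actin-binding proteins 2 were higher and 0 lower, with a median of 0.0076. ARPC3, a subunit of the Arp2/3 complex that branches filaments, was higher by 0.35 (SE 0.07), and CFL1, cofilin, which severs filaments, by 0.34 (SE 0.13). Profilin, which feeds actin monomers to growing filaments, had the largest values of the list and did not pass. Its PFN1 probe ILMN_2673211 read 2493.4 and 498.8 in anterior and 2427.9 and 2586.3 in posterior replicates 1 and 2, and ILMN_2863965 read 2151.3 and 570.2 in anterior and 2321.7 and 2148.5 in posterior replicates 1 and 2. Both PFN1 probes were low on anterior replicate 2, the array on which the ACTB pair was highest, and the other 3 arrays were close together.

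Of 23 probes of other glycolysis enzymes 0 were higher and 5 lower, with a median of -0.09. They were the phosphofructokinases PFKM, at -0.68 (SE 0.14) and -0.30 (SE 0.07), and PFKP, at -0.60 (SE 0.13) and -0.57 (SE 0.15), and the hexokinase HK1 at -0.55 (SE 0.13). The brighter PFKM probe ILMN_2628892 read 13191.5 and 12642 in anterior and 10202.9 and 10928.5 in posterior replicates 1 and 2, without overlap. No tested probe of ALDOA, ALDOC, TPI1, PGAM1, PGAM2, ENO1, ENO2, PKM2 or LDHA, which like GAPDH and PGK1 act after the phosphofructokinases, passed the criterion. Their differences ran from -0.16 for a PKM2 probe to 0.22 (SE 0.06) for ALDOC, which was higher on both posterior arrays but by less than 1.2-fold. The remaining tested probes of the upper steps did not pass either. PFKL differed by -0.19 and 0.11, PFKM ILMN_3004553 by -0.18, and GPI1 by -0.03 and 0.0085. No test compared the upper with the lower steps.

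Of 19 probes of other tubulins 0 were higher and 1 lower, TUBB4 at -0.41 (SE 0.13), with a median of 0.03. TUBB6, another beta-tubulin, differed by 0.31 (SE 0.13) and did not pass. Of 13 probes of other cyclophilins 2 were higher and 1 lower, with a median of 0.10. PPIC was higher by 0.35 (SE 0.10), PPIH, a cyclophilin of the splicing machinery, was higher by 0.29 (SE 0.08) and PPIL6 was lower, at -0.44 (SE 0.12), while PPIG at 0.37 (SE 0.24) did not pass. Of 17 probes of TBP-associated and basal transcription factors 2 were higher and 0 lower, with a median of 0.11. TAF15, an RNA-binding protein found with the TBP complex, read 1588.3 and 1206.2 in anterior and 2653.1 and 2753.8 in posterior replicates 1 and 2, a difference of 0.98 (SE 0.10, adjusted p = 0.051 in limma). TAF5, a scaffold subunit of that complex, was higher by 0.27 (SE 0.10), and GTF2A1, a subunit of TFIIA, at 0.49 (SE 0.22) did not pass.

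Of 17 probes of MHC class I partners of B2M 1 was higher and 1 lower, with a median of -0.01. H2-D1, a class I heavy chain, differed by -0.32 (SE 0.11), and FCGRT, the heavy chain of the neonatal Fc receptor, was higher by 0.26 (SE 0.09). Of 22 probes of other lysosomal hydrolases 0 passed the criterion, and the largest difference was -0.36 (SE 0.16) for MANBA, lysosomal beta-mannosidase, followed by -0.17 (SE 0.13) for IDUA, alpha-L-iduronidase. Of 26 probes of other reference genes 0 were higher and 3 lower, with a median of -0.08. All 3 were of EEF2, the elongation factor that moves the ribosome along the messenger, at -0.52 (SE 0.12), -0.47 (SE 0.18) and -0.42 (SE 0.14), so here the probes of a gene gave the same direction.

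**Figure D5:**
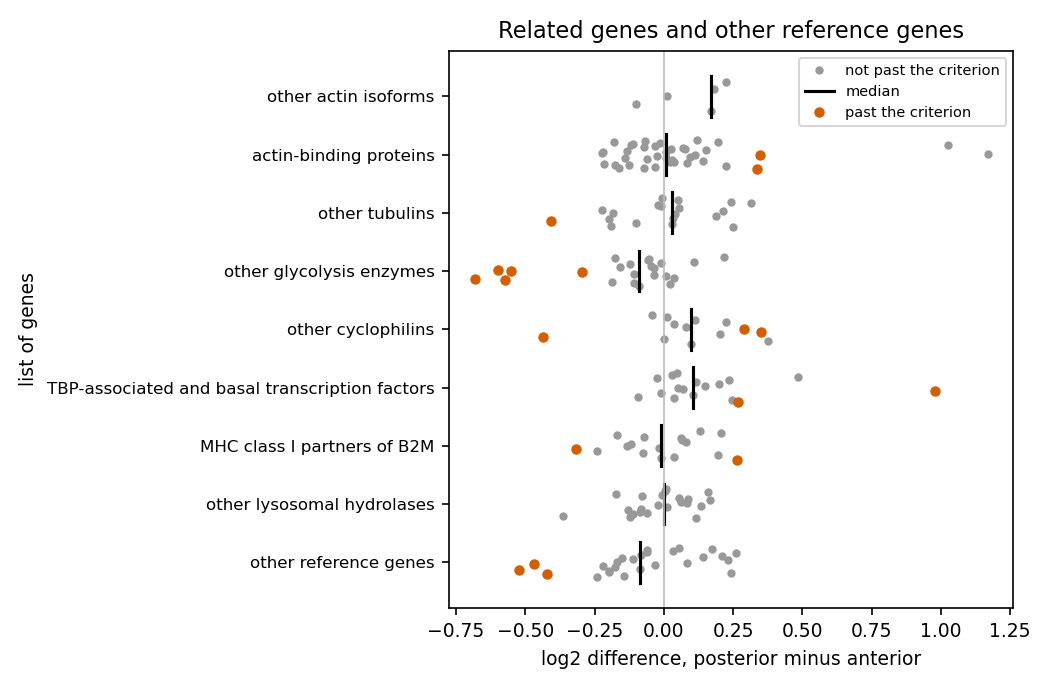
Log2 difference, posterior minus anterior, of each tested probe in the 9 lists of related genes, with probes past the criterion (over 1.2-fold, unadjusted p under 0.05) in orange and the median of each list as a black line. The medians lie between -0.09 and 0.17, and the grey points at 1.17 and 1.02 are the PFN1 probes.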

How the data were processed

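Total RNA of 2 anterior and 2 posterior cerebellar lobe samples was measured on Illumina MouseWG-6 v2 arrays, each sample on its own. The authors deposited, per array, the intensity of each of 45281 probes averaged over its beads, as GenomeStudio 1.9.0 gave it, neither normalised nor background-corrected, with the bead SD and the number of beads. They also deposited a detection score, a fraction that is 1 minus the detection p-value. Another 16 columns were not used. Array columns were assigned to samples by the sample numbers of the labels.

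In R 4.3.3 the intensities were quantile normalised, raised to a floor of 1 and put on the log2 scale. Probes detected (p-value under 0.05) on 2 or more arrays were tested with limma 3.58.1 (lmFit, eBayes with an intensity trend) and Benjamini-Hochberg adjustment over all tested probes. The criterion of the study, over 1.2-fold with an unadjusted p under 0.05, was read from the same fit. P-values measure only the spread between these samples, and the number of arrays limits the precision. The fits were tested on simulated data.

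The genes and the lists of related and marker genes were chosen with earlier results of these data known. Every probe of the 9 symbols is named, and so are the 5 probes nearest to the mean ACTB profile. From each list of related genes, probes past an adjusted p of 0.05 were to be named, and 0 passed. The 2 tested probes of each such list with the largest absolute difference are named. Of the marker probes, 6 of oligodendrocytes and 1 of meningeal fibroblasts passed an adjusted p of 0.05 in limma and are not named. Other list members were chosen for naming after their values were seen. Gene symbols are those of the array. Its genome build is not given in the sources used here, so no positions are given. The alternatives were other scalings, floors, filters and thresholds, a fit without the intensity trend, a replicate block, leaving out each array and the methods' t-test.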

Additional observations from a re-analysis of the deposited data

How the results depend on the processing

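Of the alternative values of the 20 single probe differences 261 moved by less than the spread between replicates and 17 by more. This split is no measure of stability. The floor, the filters and the replicate block gave back the same differences, so they test nothing here. The replicate spread of ACTB ILMN_2588055 was so wide that moves from -2.38 to -0.76 and -3.99, each without an anterior array, were smaller than it. The ratios of CHRNA3 to the 20 reference probes moved by less than the spread between replicates without normalisation. The counts of calls depended on the setting, and the cause was not tested. At an adjusted p under 0.05, 23 of all tested probes were called, against 123 without normalisation, 59 with a common mean of other reference genes, 13 with limma's trend left out, 73 without a filter and 0 by the methods' t-test, where 1763 had an unadjusted p under 0.05. Fits to 3 arrays gave 0 to 2538, with 2538 without anterior replicate 1, 221 without anterior replicate 2 and 0 in limma without posterior replicate 1 or 2, where 785 and 825 had an unadjusted p under 0.05. By the criterion of the study the count of 1802 became 389 at 1.5-fold, 741 by the methods' t-test and 766 to 4677 without an array (4677 without anterior replicate 1, 766 without posterior replicate 1 and 811 without posterior replicate 2). Among the reference transcripts, 2 probes passed it in the main setting, 4 without normalisation, 4 without a filter, 1 at 1.5-fold and 2 to 6 without an array, with 6 without anterior replicate 1 and 4 without posterior replicate 2. At an adjusted p, 0 became 1 with a common mean of other reference genes and 1 without a filter, each time ACTB ILMN_2698799, and 0 to 5 without an array. Of the related lists, 18 probes became 3 at 1.5-fold, 7 by the methods' t-test and 11 to 50 without an array.

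The replicate numbers pair no samples by the labels. The replicate 1 minus replicate 2 differences correlated between lobes over all tested probes (r = 0.458 across probes, which are not independent replicates). With the replicate block, 588 of all 21726 tested probes passed the adjusted p and 2818 the criterion of the study. Of the 20 reference probes 4 passed each, ILMN_2588055, ILMN_2617433, ILMN_2698799 and ILMN_2846865, all of ACTB. Nothing is read from these calls, since the differences were known when the genes were chosen. The scaling moved the split of calls by the criterion, of which 39.7% were higher in posterior in the main setting, 53.5% with a common 75th percentile and 70.2% with a common mean of other reference genes. A difference close to 0 changed its sign under another scaling for ACTB ILMN_1377923, GAPDH, PPIA ILMN_1250983, PGK1 ILMN_2797973 and GUSB ILMN_2768026. The floor of 32 changed none of the counts. Probes near the detection limit, such as that of TUBB3, bound what can be said of their transcripts.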

Other observations

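Beside the ACTB pair, 10 of the 19914 probes detected on all arrays had a range over 4 on the log2 scale. The probes described here were chosen after their values were seen, and they differ in which arrays were high. HNRPL ILMN_2627690 read 18210.5 and 419.9 in anterior and 16925.7 and 4100.9 in posterior replicates 1 and 2, and was low on the replicate 2 arrays. DIRAS2 ILMN_2505845, which codes for a small GTPase of the Ras family, read 570.8 and 8510.4 in anterior and 426 and 8824.6 in posterior replicates 1 and 2, high on the replicate 2 arrays of both lobes. PDIA4 ILMN_1249670, a disulphide isomerase of the endoplasmic reticulum, read 172.7 in anterior replicate 2 and 3449.9 to 3784.6 elsewhere, so it was low on that array alone, as the PFN1 probes were. OTX2 ILMN_2691752, a homeobox transcription factor, read 351.3 and 262 in anterior and 4935.9 and 3688.6 in posterior replicates 1 and 2, a range that followed the lobes.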
